A study of Mus musculus with 6 samples.

Results

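The genes described here are 7 transcriptional regulators of the eye field and of retinal progenitor cells: Rax, Six3, Six6, Pax6, Sox2, Nr2e1 and Hmga2. They were chosen by name, as rows of the gene count files, and all 7 were found among 39179 gene rows. All 7 also passed the filter on low counts, which kept 16691 genes. The question was how the RNA of these factors differs when the gene of another eye field factor, Lhx2, is deleted in the developing retina.

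The eye field is the patch of the anterior neural plate that gives rise to both eyes. Rax, Six3, Six6, Pax6 and Lhx2 are expressed there together and regulate one another, and most of them stay on in the multipotent progenitors of the optic cup. Sox2 and Nr2e1 act in neural progenitors more widely and sustain their proliferation, and Hmga2 is a chromatin protein of fetal neural stem cells. As progenitors leave the cycle several of these genes are kept in single classes of neurons or glia, Pax6 in amacrine and ganglion cells and Sox2 in Müller glia and some amacrine cells.

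Retinal RNA was sequenced from 6 mice of a mixed, mainly CD-1 background at postnatal day 0.5, when the mouse retina still holds many progenitors and Müller glia, its last-born cell type, are about to form. The 3 conditional knockouts (cKO 1, 2 and 3) carried Lhx2 lox/lox with Pdgfrα-Cre, a Cre recombinase placed under the control of the Pdgfrα gene. The 3 controls (control 2, 3 and 4) carried the same floxed Lhx2 alleles without Cre, and the series text calls them wild type. The labels do not say in which share of retinal cells the Cre had acted, and whole retinas were used, so RNA of cells with and without Lhx2 was measured together.

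Reads counted on genes ranged from 31483170 to 66947478 in cKO libraries and from 32698665 to 43854446 in control libraries. The 6 libraries fell into 2 sets that crossed genotype, separated by the share of deposited counts that was ambiguous between genes. Set A (cKO 1, cKO 2 and control 2) had 3.13 to 3.20% ambiguous counts and 1.15 to 1.79% of gene counts on mitochondrial genes. Set B (cKO 3, control 3 and control 4) had 2.63 to 2.69% ambiguous counts and 7.14 to 9.55% mitochondrial counts. With genotype in the model, 63.7% of tested genes differed between the sets, so library set was a term of the fit, and calls of the 7 factors are also given without it. The labels name no batch. Crx, a photoreceptor precursor gene that marks the tissue as retina, had 353 to 430 CPM in cKO and 396 to 468 CPM in control libraries. Y-linked counts marked controls 2 and 4 as male and the other 4 libraries as female, so sex and genotype cannot be fully told apart. Values are CPM (counts per 1000000 counts on genes) with TMM scaling, and fold changes are log2 of cKO over control with the standard error (SE) from edgeR's quasi-likelihood fit over all genes.

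Lhx2 itself had 252, 287 and 224 CPM in cKO libraries 1, 2 and 3, against 399, 266 and 258 CPM in controls 2, 3 and 4. The groups overlapped, although every cKO library lay below the control or controls of its own set. The fitted log2 change was -0.40 (SE 0.10, n = 3 per group, edgeR adjusted p = 0.0338), and the call was held in 2 of the 6 fits that each left out 1 library. The labels do not give which exons are removed, so reads of exons that remain after deletion may be counted.

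Of the 7 factors, 4 fell in cKO retinas, none rose and 3 did not pass the threshold of adjusted p under 0.05. Rax, Six6, Nr2e1 and Sox2 were the 4 that fell, to between 59.3 and 70.3% of control in the fit, and Six3, Pax6 and Hmga2 had fitted levels of 92.1 to 98.3% of control. Over all tested genes the same fit called 5.63% lower and 6.36% higher, with a median log2 change of -0.00098. The 4 changes depended on the library set term. With genotype alone edgeR called none of the 7, and 0 genes at all as lower (461 at an unadjusted p under 0.05) and 0.216% as higher. DESeq2 with genotype alone called Six6 (adjusted p = 0.0170) and no other of the 7. With both set and sex as terms edgeR again called none of the 7, with 0.377% of genes lower and 1.04% higher. DESeq2 with the set term called the same 4, with 1672 genes lower and 1204 (7.21%) higher. In a bulk sample, fewer cells that express a gene and less RNA per cell cannot be told apart.

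**Figure D1:**
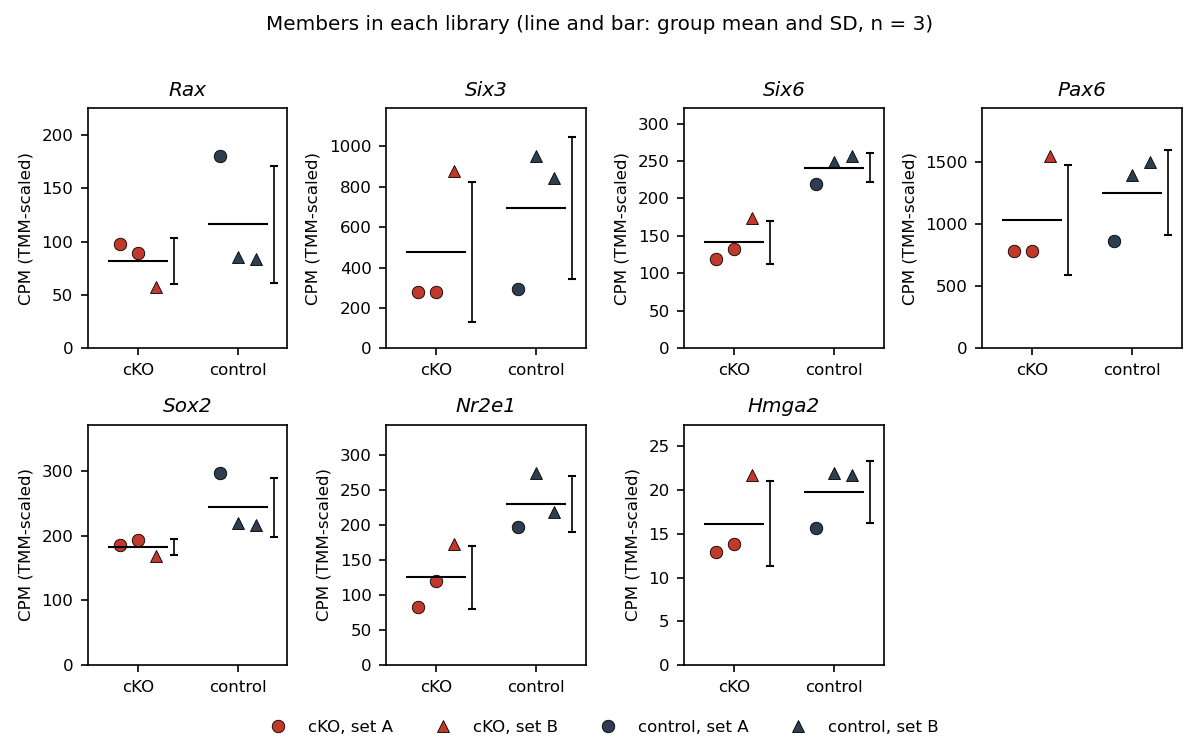
TMM-scaled CPM of each of the 7 factors in every library, cKO at left and control at right, with circles for set A and triangles for set B; the horizontal line is the group mean and the bar its SD (n = 3). Six6, Sox2 and Nr2e1 separate by genotype, while Rax, Six3, Pax6 and Hmga2 separate by library set.

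Rax encodes the paired-type homeodomain protein that is required for the optic vesicle to form. The gene lies on chromosome 18 of GRCm38, from 65928277 to 65939787 on the minus strand. It had 98.0, 89.4 and 57.5 CPM in cKO libraries 1, 2 and 3, against 179.8, 86.1 and 83.7 CPM in controls 2, 3 and 4. Control 2 was far above the other controls, and cKO libraries 1 and 2, of its set, were above controls 3 and 4, so the groups overlapped. Within each set every cKO library was below every control, as it was for 23.8% of tested genes. The log2 change was -0.75 (SE 0.10, 95% interval -0.98 to -0.53, edgeR adjusted p = 0.00293). Taken separately, the sets gave mean log2 differences of -0.94 (A) and -0.56 (B). Rax was the one member called in all 6 fits that left out 1 library, and its weakest was without control 2 (-0.56, adjusted p = 0.0480). An antisense gene, Raxos1, shares 1604 exonic bases with Rax. No source states whether the counting used strand, and reads of the shared part could then belong to either gene. Raxos1 was lower alongside it (log2 -0.74, SE 0.18, adjusted p = 0.0299; adjusted p = 0.727 with genotype alone and 0.529 with set and sex), at 8.31 to 12.7 CPM in cKO and 11.5 to 18.9 CPM in control libraries.

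Six6, a homeodomain gene whose protein keeps retinal progenitors dividing, is on chromosome 12 (72939892 to 72944899, plus strand). It had 119, 132 and 174 CPM in cKO libraries 1, 2 and 3, against 219, 249 and 256 CPM in controls 2, 3 and 4. All cKO libraries were below all controls, an arrangement found for 5.54% of tested genes. The log2 change was -0.67 (SE 0.09, 95% interval -0.87 to -0.47, edgeR adjusted p = 0.00293), and the difference was -0.80 within set A and -0.54 within set B. Without control 2 the change was -0.54 and the call was lost (adjusted p = 0.0545). A gene on the other strand, 4930447C04Rik, shares 192 exonic bases with Six6 and was not called (-0.18, adjusted p = 0.492).

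Its close relative Six3, which acts earlier to specify the forebrain and the eye, behaved differently. Six3 (chromosome 17, 85613608 to 85629302, plus strand) had 279, 277 and 877 CPM in cKO libraries 1, 2 and 3, against 295, 950 and 843 CPM in controls 2, 3 and 4. The 3 libraries of set A were all at 295 or below and those of set B all at 843 or above, whatever the genotype. Set B was 3.09 times set A (adjusted p = 1.87e-06), and the fitted cKO change was -0.06 (SE 0.09, 95% interval -0.25 to 0.14, adjusted p = 0.725). The ratio of Six6 to Six3 CPM was 0.427, 0.477 and 0.198 in cKO libraries 1, 2 and 3, against 0.741, 0.262 and 0.304 in controls 2, 3 and 4. It was lower in cKO within each set, by -0.72 in set A and -0.51 in set B on the log2 scale. The exact permutation test within sets gave a 2-sided p of 0.111, the smallest that its 9 arrangements allow, and over all 20 splits p was 0.9. The divergent transcript Six3os1 overlaps Six3 by 106 exonic bases. Six3os1 had 479, 454 and 353 CPM in cKO libraries 1, 2 and 3, against 434, 373 and 353 CPM in controls 2, 3 and 4. It split by set the other way from Six3, with set A 1.26 times set B (edgeR adjusted p = 0.00670). The fitted cKO change of Six3os1 was 0.03 (edgeR adjusted p = 0.849).

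Pax6, the paired-box gene of all eye tissues, is on chromosome 2 (105668900 to 105697364, plus strand). It had 783, 783 and 1548 CPM in cKO libraries 1, 2 and 3, against 864, 1400 and 1506 CPM in controls 2, 3 and 4. Like Six3, it was higher in set B, by 1.82-fold (adjusted p = 4.37e-05). Relative to control it was slightly lower in the set A cKO libraries (log2 -0.14) and slightly higher in that of set B (0.09), and the fitted change was -0.03 (SE 0.09, 95% interval -0.23 to 0.18, adjusted p = 0.896).

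Sox2 encodes an HMG-box factor that holds neural progenitors in an undifferentiated, proliferating state. Sox2 (chromosome 3, 34650405 to 34652461, plus strand) had 185, 194 and 169 CPM in cKO libraries 1, 2 and 3, against 297, 219 and 216 CPM in controls 2, 3 and 4. The groups did not overlap, and the cKO libraries spanned a narrower range than the controls. The log2 change was -0.51 (SE 0.09, 95% interval -0.70 to -0.31, edgeR adjusted p = 0.00785), made up of -0.65 within set A and -0.37 within set B. Without control 2, the highest library, the change was -0.37 and was not called (adjusted p = 0.133).

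Nr2e1 (Tlx), an orphan nuclear receptor that represses cell cycle inhibitors in neural stem cells and times progenitor exit in the retina, is on chromosome 10 (42561963 to 42583632, minus strand). It had 83.1, 119 and 172 CPM in cKO libraries 1, 2 and 3, against 196, 274 and 218 CPM in controls 2, 3 and 4. All cKO libraries were below all controls, with a wider spread among the cKO libraries than for Six6 or Sox2. The log2 change was -0.74 (SE 0.16, 95% interval -1.10 to -0.37, edgeR adjusted p = 0.0203), and the within-set differences were -0.96 (A) and -0.52 (B). It was the least stable of the 4 calls. The call was lost without control 2 (-0.52, adjusted p = 0.236), without control 3 (-0.71, adjusted p = 0.0658) and without cKO 3 (-0.93, adjusted p = 0.0615).

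Hmga2, an architectural chromatin protein abundant in young neural stem cells and silenced as they age, had the lowest level of the 7 when compared per length. The gene is on chromosome 10 (120361275 to 120476469, minus strand). It had 13.0, 13.8 and 21.7 CPM in cKO libraries 1, 2 and 3, against 15.7, 22.0 and 21.7 CPM in controls 2, 3 and 4. The libraries of set B were again the higher ones (log2 of set A over set B -0.59, adjusted p = 0.00125). The cKO change was -0.12 (SE 0.11, 95% interval -0.36 to 0.13, adjusted p = 0.549).

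Hmga2 is a classic target of the let-7 microRNAs, which accumulate as development proceeds. The mature let-7a and the first of its sites in the 3′ untranslated region of Hmga2 are shown because their pairing is what links Hmga2 to this pathway. Capitals mark the seed of let-7a (bases 2 to 8) and the complementary bases of the site.
mmu-let-7a-5p: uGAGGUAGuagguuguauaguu
Hmga2 site 1: cattcaatttCTACCTC
The miRNA sequence is from RefSeq, where all 8 let-7 names found share this seed. The site is at chr10:120364225-120364241 (GRCm38, minus strand), and the 2977 bases of the untranslated region of transcript Hmga2-201 hold 4 matches to CTACCTC. MicroRNAs were not measured in these libraries.

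**Figure D2:**
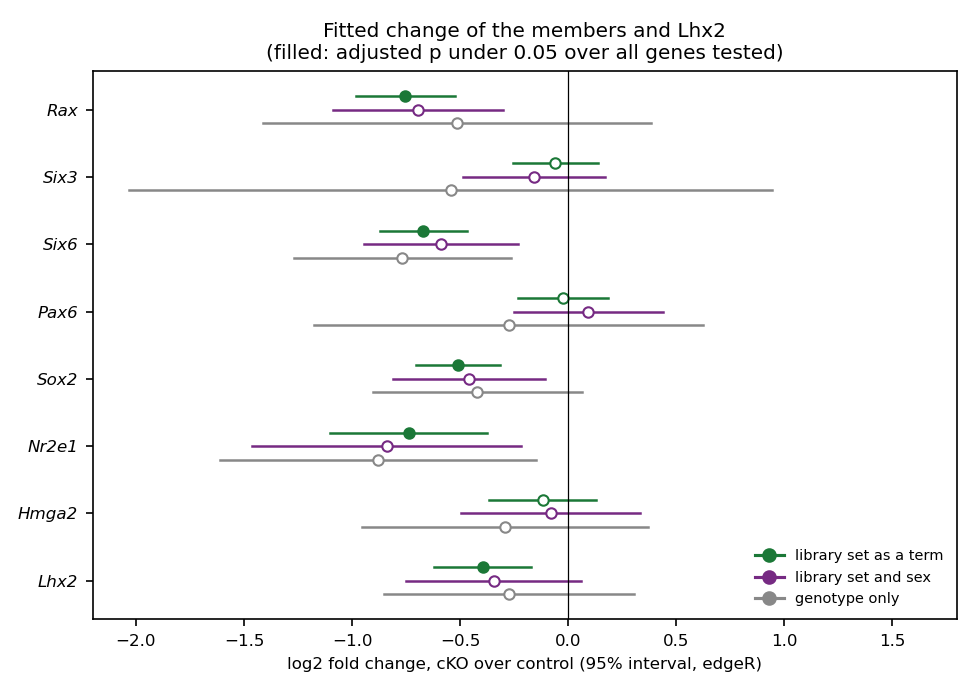
Fitted log2 change of cKO over control for the 7 factors and Lhx2, with 95% intervals, for the fit with library set, the fit with library set and sex and the fit with genotype alone; filled points have an adjusted p under 0.05. The called factors lie between -0.75 and -0.51 with the set term, and no point is filled in the other fits.

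All 7 factors differed between the library sets, Rax and Sox2 being higher in set A (1.86-fold and 1.24-fold) and the other 5 higher in set B. For Six3, Pax6, Hmga2 and Rax the set difference was larger on the log2 scale than the fitted genotype difference, and for Six6, Sox2 and Nr2e1 it was smaller. The test of whether the cKO change differed between the sets called none of the 7 (edgeR adjusted p from 0.975 to 0.991), and 0.0240% of all genes. For all 4 called genes the fitted change was larger in set A, by 0.26 (Six6) to 0.44 (Nr2e1) on the log2 scale. In set A the cKO libraries are female and the only control is male, so sex and genotype cannot be told apart there. Fitted singly, set A has 1 control and set B 1 cKO library, so each fit takes the lone library to vary like the other group. With only the 3 libraries of set A, edgeR called Rax alone (adjusted p = 0.0200), and with only those of set B it called all 4 (adjusted p from 0.00235 to 0.0210).

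Levels of different genes were compared as RPKM, CPM divided by the kilobases of merged exon. Averaged over the controls the levels were Six3 (128 ± 64.5 RPKM), Sox2 (119 ± 22.2), Pax6 (107 ± 29.4), Nr2e1 (61.8 ± 10.8), Six6 (60.2 ± 4.95), Rax (19.9 ± 9.37) and Hmga2 (2.92 ± 0.525; SD, n = 3). The first 3 means lay within 1 SD of each other, as did Nr2e1 and Six6, whereas Rax and Hmga2 stood apart. Averages in cKO retinas were Pax6 (88.8 ± 37.8 RPKM), Sox2 (88.7 ± 6.24), Six3 (87.7 ± 63.5), Six6 (35.3 ± 7.14), Nr2e1 (33.6 ± 12.04), Rax (14.0 ± 3.65) and Hmga2 (2.39 ± 0.714; SD, n = 3). These averages pool the library sets, and the order of the upper genes differed between them. Sox2, Pax6 and Six3 had 89.9, 67.0 and 51.2 RPKM in cKO 1 and 144, 73.9 and 54.2 RPKM in control 2, both of set A. In set B the order was turned round, with 81.9, 132 and 161 RPKM in cKO 3 and 106, 120 and 174 RPKM in control 3. The order also depended on the length used. With the longest transcript as length, Pax6 was the highest, at 234 RPKM in cKO and 284 RPKM in control retinas. In controls, Six3, Sox2 and Pax6 were above 98.6, 98.4 and 98.1% of tested genes and Hmga2 above 40.8%.

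The promoters of the 3 called members that the RefSeq table holds, and of Six3 as an uncalled relative of Six6, are shown because Lhx2 is a LIM-homeodomain protein and such proteins bind a TAAT core. Each sequence runs from 250 bases before to 50 bases after the RefSeq start, on build GRCm38.p6. Capitals mark TAAT or its reverse complement ATTA, which can share bases.
Six6 (chr12:72939632-72939931, plus strand): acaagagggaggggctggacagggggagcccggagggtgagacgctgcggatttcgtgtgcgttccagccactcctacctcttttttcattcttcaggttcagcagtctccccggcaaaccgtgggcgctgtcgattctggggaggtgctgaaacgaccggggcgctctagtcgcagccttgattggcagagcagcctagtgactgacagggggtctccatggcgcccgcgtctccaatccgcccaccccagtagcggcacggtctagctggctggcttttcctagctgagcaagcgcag
Sox2 (chr3:34649745-34650044, plus strand): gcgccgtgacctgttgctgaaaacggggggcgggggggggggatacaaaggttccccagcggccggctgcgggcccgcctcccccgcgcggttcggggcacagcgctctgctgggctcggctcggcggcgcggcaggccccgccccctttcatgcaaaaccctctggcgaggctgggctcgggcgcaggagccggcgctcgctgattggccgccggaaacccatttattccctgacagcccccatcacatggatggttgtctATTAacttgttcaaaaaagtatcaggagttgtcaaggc
Nr2e1 (chr10:42583541-42583840, minus strand): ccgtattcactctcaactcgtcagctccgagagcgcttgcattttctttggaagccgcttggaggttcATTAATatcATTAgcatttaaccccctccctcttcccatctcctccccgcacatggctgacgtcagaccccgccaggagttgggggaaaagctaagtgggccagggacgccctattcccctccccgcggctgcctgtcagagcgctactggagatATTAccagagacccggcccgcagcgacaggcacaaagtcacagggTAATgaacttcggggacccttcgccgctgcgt
Six3 (chr17:85620584-85620883, plus strand): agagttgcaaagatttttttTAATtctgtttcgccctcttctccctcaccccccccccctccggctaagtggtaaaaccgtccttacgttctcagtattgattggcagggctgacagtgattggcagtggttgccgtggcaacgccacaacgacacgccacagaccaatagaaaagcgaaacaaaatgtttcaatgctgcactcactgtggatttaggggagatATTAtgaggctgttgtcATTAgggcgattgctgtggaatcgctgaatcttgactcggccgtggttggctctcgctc
The core occurred 5 times in Nr2e1, where one ATTA overlaps a TAAT, once in Sox2, 3 times in Six3 and 0 times in Six6. Both Pax6 promoters in the table held 2 and that of Hmga2 held 0. Of all 32851 promoters of this length, 58.03% held at least 1 TAAT on either strand. The core was present in called (Sox2, Nr2e1) and uncalled (Six3, Pax6) members, and absent from called Six6 and uncalled Hmga2. Binding of Lhx2 to these promoters was not tested. The longer palindrome TAATTA occurred in none of the 6 members with an entry and in 5.291% of all promoters. The Six6 and Sox2 promoters had 62.33 and 66.33% GC, against a median of 52.67% over all promoters.

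Markers of cycling cells and of several cell types also moved with genotype in the fit with library set. Over all tested genes that fit called 5.63% lower and 6.36% higher. The all-gene shares were 0.377 and 1.04% with set and sex, and 0 and 0.216% with genotype alone. Of 14 cell cycle genes, 13 were lower in cKO, but 1 with set and sex and 0 with genotype alone, and their summed level was 3946 to 5296 CPM in cKO libraries and 8003 to 8581 CPM in controls. Mki67 was the exception, with a log2 change of -0.55 (adjusted p = 0.0644). Ganglion cell markers went the other way, with 13 of 14 higher, but 2 with set and sex and 0 with genotype alone (2900 to 3864 CPM in cKO libraries, against 1945 to 2288 CPM in controls). The amacrine and horizontal cell markers, from cells that keep Pax6 and Six3, showed 1 higher (Calb1) and 1 lower (Ptf1a) of 15. That was 13.3% of the list, close to the 11.99% of all tested genes. They summed to 703 to 1319 CPM in cKO libraries and 763 to 1482 CPM in controls.

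RNA of lens markers was present in the cKO libraries. The list summed to 863 to 2322 CPM in cKO libraries and 2.72 to 6.34 CPM in controls, and Foxe3 was at 0 in all controls. Of the 14, 11 passed the filter, most of them through the cKO libraries alone, so the number called is not read as a result. Pax6, Six3 and Sox2 are also expressed in lens cells. The 9 ciliary margin markers summed to 175 to 273 CPM in cKO and 114 to 126 CPM in control libraries, with 3 higher and none lower (1 higher with set and sex). None of the 7 tested pigment epithelium markers was called (14.6 to 32.4 CPM in cKO, 9.64 to 16.5 CPM in control libraries). Astrocyte markers, a further source of Sox2 and Nr2e1 RNA, summed to 577 to 768 CPM in cKO and 438 to 704 CPM in control libraries. Of these 8 markers 1 was higher and none lower, 12.5% against 11.99% of all tested genes. Microglia markers were higher for 6 of 6 genes, but for 1 with set and sex, at 58.2 to 76.3 CPM in cKO and 20.8 to 35.1 CPM in control libraries. Of 6 endothelial markers 4 were higher and 1 lower, with a median log2 change of 1.48. Their summed level went the other way (265 to 483 CPM in cKO, 531 to 703 CPM in control libraries). Of 4 tested blood markers 2 were higher (18.7 to 22.4 CPM in cKO, 0.598 to 12.4 CPM in control libraries). With set and sex 1 endothelial and 1 blood marker stayed higher, and with genotype alone edgeR called 0 ciliary margin, microglia, endothelial or blood markers. The part of these cell types in the values of the 7 factors was not tested.

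To set the factors against a gene of cycling cells, each was divided by the DNA replication gene Pcna in the same library. Pcna had 209, 224 and 212 CPM in cKO libraries 1, 2 and 3, against 341, 340 and 335 CPM in controls 2, 3 and 4. The 3 cKO libraries were all below the 3 controls, and Pcna was nearly level within each genotype. The ratio of Six6 to Pcna was 0.570, 0.591 and 0.821 in cKO libraries 1, 2 and 3, against 0.642, 0.733 and 0.763 in controls 2, 3 and 4. The ratio of Sox2 to Pcna was 0.886, 0.867 and 0.796 in cKO libraries 1, 2 and 3, against 0.871, 0.644 and 0.645 in controls 2, 3 and 4. Both ratios overlapped between genotypes, as did those of the other 5 factors. With all 20 arrangements of genotype, the exact 2-sided permutation p of the 7 ratios was 0.3 to 1, where the smallest possible is 0.1. The within-set log2 differences in the ratio to Pcna were -0.09 for Rax, -0.005 for Six6, -0.08 for Nr2e1 and 0.16 for Sox2 (exact permutation p from 0.222 to 0.778). The first 3 averaged opposite signs in the sets: -0.28 (A) and 0.11 (B) for Rax, -0.15 and 0.14 for Six6, and -0.32 and 0.17 for Nr2e1. The within-set differences were 0.61 for Six3, 0.64 for Pax6 and 0.55 for Hmga2 (exact permutation p = 0.111 each, the smallest possible within sets). The fitted changes of these 3 factors themselves were -0.06, -0.03 and -0.12, so their ratios mostly restate the lower Pcna of the cKO libraries.

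**Figure D3:**
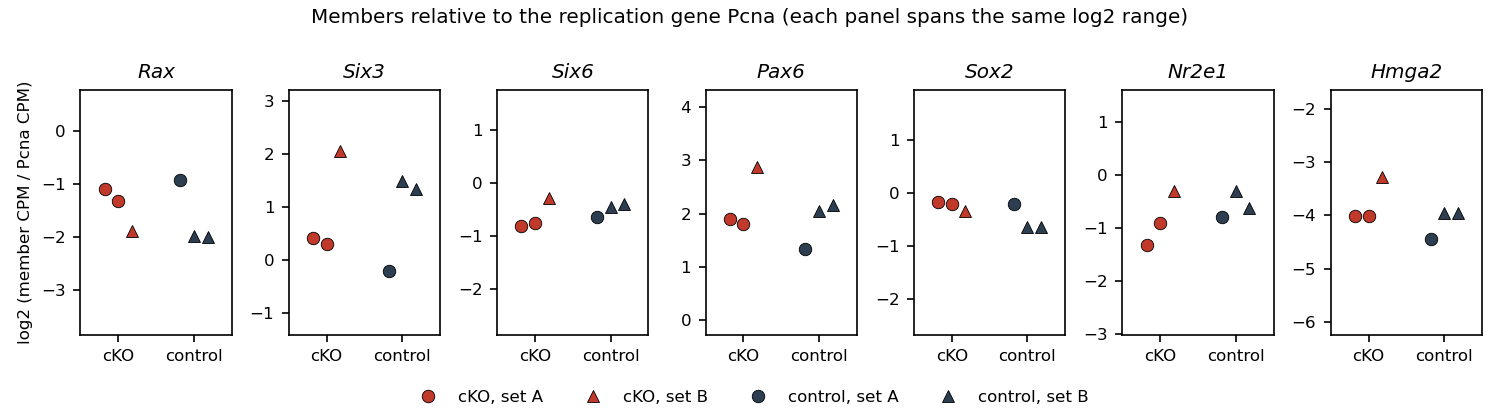
Log2 ratio of each factor's CPM to that of Pcna in every library, cKO left of control, circles for set A and triangles for set B. For all 7 factors the cKO and control libraries overlap, and within sets the cKO ratios of Six3, Pax6 and Hmga2 lie above those of the controls. Pcna, the denominator, was itself lower in every cKO library.

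The wider eye field network, 14 other genes that specify or pattern the anterior neural plate, moved in both directions. Of them 3 were lower and 2 higher, with a median log2 change of 0.15, where 5.63% of all tested genes were lower and 6.36% higher. With set and sex, and with genotype alone, 0 of the 14 were called. Tbx3, a T-box gene acting upstream of Rax and Pax6 in frogs, had 60.5, 67.2 and 47.1 CPM in cKO libraries 1, 2 and 3, against 105, 81.6 and 81.6 CPM in controls 2, 3 and 4 (log2 -0.75, SE 0.08, edgeR adjusted p = 0.00133). Otx2, which primes the anterior neural plate and later specifies photoreceptors, was lower (-0.45, edgeR adjusted p = 0.0317), as was Lhx2. The 3 lower genes therefore include the gene that was deleted by design. Zic1 and Zic2, zinc finger genes of the ciliary margin and of early neural tissue, were higher (0.67 and 0.53, adjusted p = 0.00831 and 0.00908).

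Among 21 transcription factors of retinal progenitors 5 were lower and 2 higher (the same Zic genes), with a median of -0.19, beside the same all-gene shares of 5.63 and 6.36%. The 5 lower genes include Lhx2, the deleted gene. The others were the Notch effector Hes1 (-0.82), Olig2 (-0.75) and Foxn4 (-0.67), which mark neurogenic progenitors, and the Hippo pathway factor Tead2 (-0.32). Sox9, Hes5, Yap1 and 11 others did not pass the threshold. In this list only Hes1 was still called with sex as a further term.

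Among 16 cofactors and relatives of Six3 and Six6, 3 were lower and 2 higher (median -0.10), and 0 were called with set and sex. In all, 31.2% of this list was called, against 11.99% of all tested genes. The corepressor gene Tle1, whose product binds Six3 and Six6, was higher (250.2 ± 15.6 CPM in cKO, 170 ± 23.7 CPM in control retinas, SD, n = 3; log2 0.49, adjusted p = 0.00762), and Tle3 of the same family was lower (-0.57, adjusted p = 0.0120). Geminin (Gmnn), a replication licensing inhibitor that binds Six3, was lower (-0.45), as was Six5 (-0.42), and Dach2 was higher (0.58). None of the Eya coactivator genes was called.

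Of the Sox and Pou partners of Sox2, 11 of 13 were tested, 1 was lower and 2 were higher, 27.3% of the list against 11.99% of all tested genes. That share counts Sox21, whose call is not read as a result for the reason given below, so the 2 shares are not compared further. Sox1, which shares the SoxB1 group with Sox2 and activates crystallin genes in the mouse lens, had 10.3, 12.1 and 24.0 CPM in cKO libraries 1, 2 and 3, against 0.546, 1.56 and 2.42 CPM in controls 2, 3 and 4. Sox21, a SoxB2 gene that counteracts SoxB1 factors in chick neural progenitors, had 11.4, 12.8 and 14.2 CPM in cKO libraries 1, 2 and 3, against 0.831, 0.180 and 0.133 CPM in controls 2, 3 and 4. Among the called genes of the related lists, leaving the cell type markers aside, both had the largest changes. These were log2 3.89 (SE 0.24) and 4.88 (SE 0.43), with edgeR adjusted p = 4.3e-05 and 0.00042. Both stayed called in all 6 fits leaving out a library and with sex as a term, but not with genotype alone (adjusted p = 0.182 and 0.0840). Sox21 was near 0 in controls 3 and 4 and passed the filter on low counts through the cKO libraries. Its calls are therefore not read as a result. The summed lens markers given above moved with both genes, and their part in these changes was not tested.

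The third SoxB1 gene, Sox3, had 42.0, 35.8 and 14.5 CPM in cKO libraries 1, 2 and 3, against 35.8, 8.98 and 8.58 CPM in controls 2, 3 and 4 (log2 0.40, adjusted p = 0.116). The 3 SoxB1 genes therefore had fitted changes of -0.51 (Sox2), 0.40 (Sox3, not called) and 3.89 (Sox1). Sox8, a SoxE gene of glial progenitors, had 52.8, 70.8 and 91.0 CPM in cKO libraries 1, 2 and 3, against 128, 195 and 176 CPM in controls 2, 3 and 4 (log2 -1.04, SE 0.12, adjusted p = 0.00146). Its relative Sox9 had a change of -0.21 (adjusted p = 0.139) and, like Six3, differed between the sets (log2 of set A over set B -1.57).

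**Figure D4:**
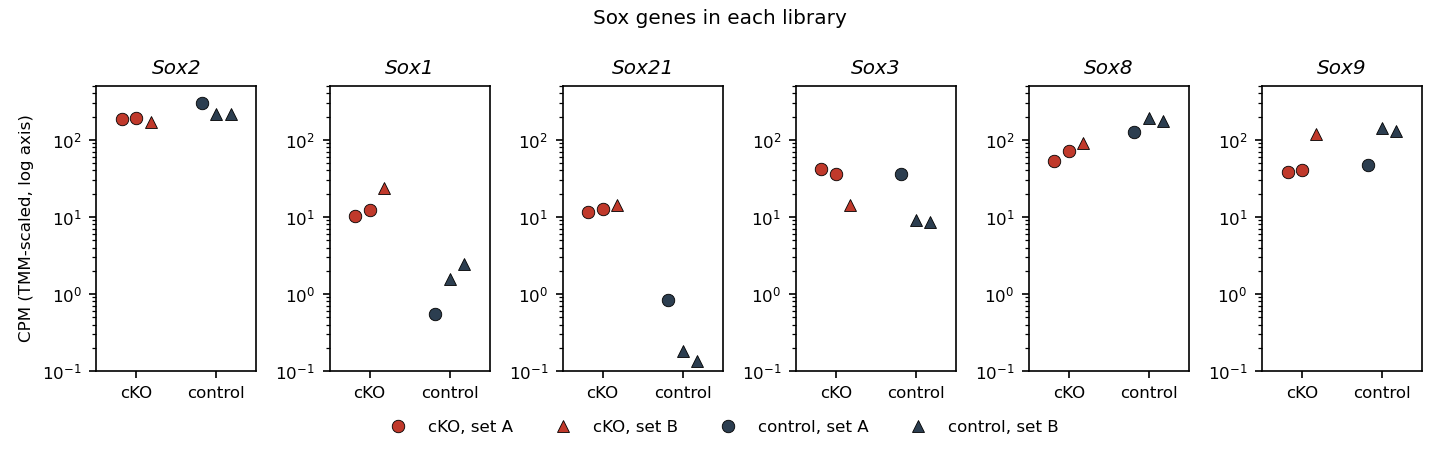
TMM-scaled CPM of Sox2 and 5 other Sox genes in every library on a log axis, cKO left of control, circles for set A and triangles for set B. Sox1 and Sox21 are at 10.3 CPM or more in every cKO library and below 2.5 CPM in every control.

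In the remaining lists 10 to 15.4% of tested genes were called, close to the 11.99% of all tested genes. Of 10 tested Pax genes and Pax6 partners only Maf, a lens fibre factor, was called (higher, 0.94, adjusted p = 0.00246), and the Pax6 partners Meis1 and Meis2 were not. Of 13 partners and targets of Nr2e1, Nr2f2 (0.52) and Bcl11a (0.41) were higher. The corepressor genes Hdac1, Hdac2 and Kdm1a, and Cdkn1a, which Nr2e1 represses in neural stem cells, were not called. In the Hmga2, Lin28 and let-7 list, 2 of 17 were lower: Igf2bp2 (-0.62, adjusted p = 0.00570), an RNA-binding protein gene that Hmga2 activates in muscle and neural progenitors, and Hmga1 (-0.39, adjusted p = 0.0240), the paralog of Hmga2. Lin28a had 0.613 to 0.768 CPM in cKO and 0.568 to 0.699 CPM in control libraries, and Lin28b, at 3.30 to 12.6 CPM in cKO and 2.73 to 10.3 CPM in control libraries, was not called (0.43, adjusted p = 0.149). Over all 7 lists 22 genes were called, of which 6 stayed called whichever library was left out: Tbx3, Hes1, Sox1, Sox21, Sox8 and Maf. Of the others, 11 were called in 3 to 5 of those 6 fits, and Lhx2, Tead2, Six5, Dach2 and Bcl11a in only 1 or 2. With genotype alone edgeR called none of the 22. Sox21 passed the filter through the cKO libraries, as said above, so its calls are not read as a result. The lists share some genes, and their members were not chosen independently of earlier results of these data.

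**Figure D5:**
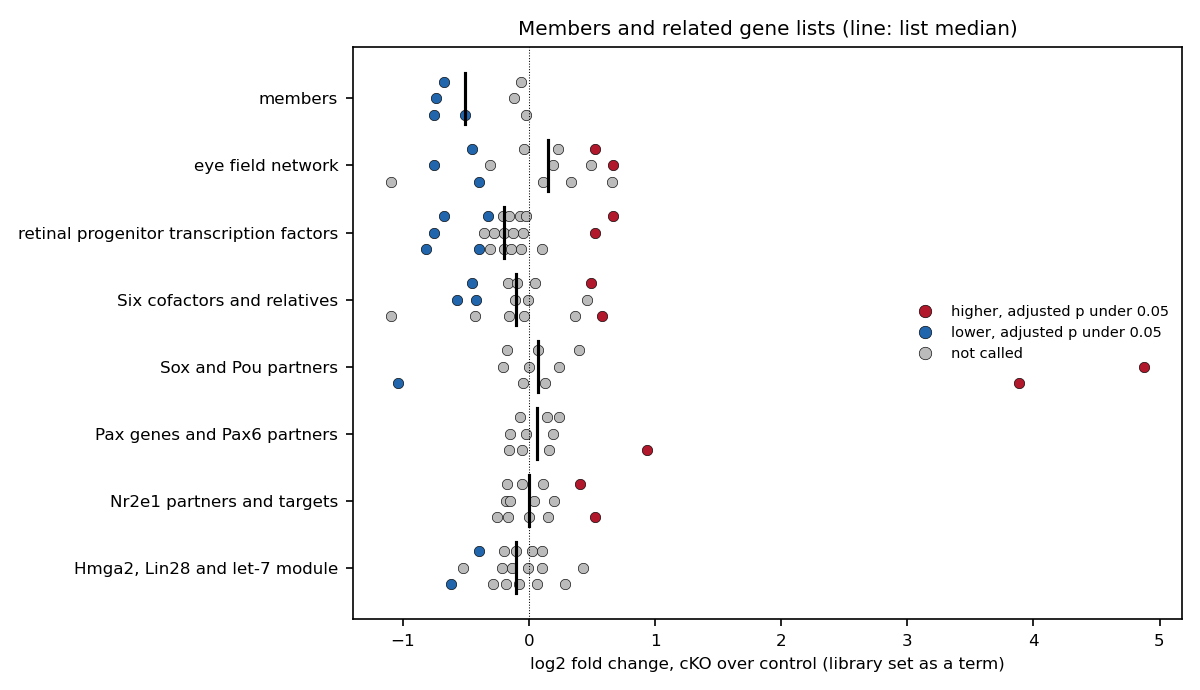
Fitted log2 change of each tested gene in the 7 factors and 7 related lists, with the library set term; colours mark genes called higher, called lower or not called, and the vertical line is the list median. The medians of the related lists lie between -0.19 and 0.15, and Sox1 and Sox21 stand far to the right at 3.89 and 4.88.

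The genes whose pattern was most like each factor were found by the Pearson correlation of log2 CPM over the 6 libraries after the mean of each set was subtracted, among 12069 genes with a mean of at least 2 CPM. For Rax they were Csrp2, Ppp1r8 and Tor1a (r = 0.999 each). For Six6 they were Poc1b, Tacc3 and Ube2c (r above 0.999 each), and for Sox2 Fhl1, Psmc3ip and Prdm10 (r from 0.997 to 0.998). For Nr2e1 they were Rest, Lims1 and Nup153 (r = 0.999 each). Only the set mean was subtracted, so a gene picked for matching a factor that fell tends to have fallen too. Its change is therefore not separate support. For Six6 the log2 changes were -0.19 (Poc1b), -0.50 (Tacc3) and -0.51 (Ube2c), where Tacc3 and Ube2c encode mitotic proteins. The 6 points share genotype and set, and many genes reach such values: 986 genes had r of at least 0.9 with Rax, 1489 with Six6, 1358 with Sox2 and 1400 with Nr2e1. For the uncalled factors the number was 127 for Six3 (led by Zfp109, Med6 and Bbs1), 87 for Pax6 (Grk5, Limd2 and Arl2bp) and 637 for Hmga2 (Ints1, Llgl1 and Cryl1).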

How the data were processed

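The authors deposited 1 table per library, with raw counts of reads for each Ensembl gene. STAR, HTSeq, edgeR and GRCm38 are named without versions or roles, per the submitters' processing notes, and no strand setting is stated. The 5 rows that name no gene held 26.4 to 28.8% of deposited counts and stayed out of library sizes and tests. Symbols, coordinates and lengths came from GENCODE vM21 (37607 of 39179 identifiers matched, 96.0%; the others held 0.237% of counts).

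Groups came from the sample titles. Libraries were treated as separate animals, and replicates of a group differed by at least 24.8 times the chi-square expected from counting. Counts were fitted in R 4.3.3 with edgeR 4.0.16 (TMM, filterByExpr by group, quasi-likelihood test, Benjamini-Hochberg adjustment over 16691 genes, threshold 0.05), with library set and genotype as terms. Sets were split at 2.9% ambiguous counts. The common dispersion was 0.0176 with the set term and 0.157 without. The code was tested on simulated data. Ratios were tested by exact permutation. Alternatives used DESeq2 1.42.0, limma-voom (limma 3.58.1), other scalings, filters, terms and thresholds, and leaving out each library.

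The members and gene lists were chosen with earlier results of these data known. The text names the 7 factors, list genes past the threshold, markers, and the 3 genes most correlated with each factor; other list genes named as uncalled were chosen after their values were seen. Some listed genes and 1 planned ratio are not reported here. Promoter and miRNA sequences are from RefSeq. Rax has no promoter entry in the table used and its sequence is not shown. At depths of 31483170 counts or more, counting error is small beside the SD of each genotype group for all 7 factors. That SD includes the difference between library sets, and libraries of the same set and genotype can lie within counting error. Hmga2, for example, had 22.0 and 21.7 CPM in controls 3 and 4, from 734 and 655 counts.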

Additional observations from a re-analysis of the deposited data

Results flagged for a closer look

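Pax6 was the one factor of the 7 whose cKO libraries lay on opposite sides of their controls in the 2 library sets. In set A both cKO libraries (783 and 783 CPM) were below the control (864 CPM), and in set B the cKO library (1548 CPM) was above both controls (1400 and 1506 CPM). The difference between the 2 changes, set A minus set B, was -0.2335 on the log2 scale (SE 0.20, edgeR interaction test, adjusted p = 0.975), so it did not pass the threshold.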

How the results depend on the processing

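Of the 7 factors, 4 were called lower with library set as a term. That count was 0 with genotype alone, 0 with set and sex, 1 in set A alone and 1 to 4 when a library was left out (1 without control 2). All 4 were called under other scalings, other filters, DESeq2 and limma-voom. They were also called in set B alone, which has 1 cKO library. All 4 stayed below 0 under every alternative. Across all genes, 939 were lower and 1062 higher. These counts were 0 and 36 with genotype alone, 63 and 173 with set and sex, 123 and 253 in set A alone, and 281 and 379 at an adjusted p of 0.01. Lower genes numbered 1592 without a filter, 1672 with DESeq2 and 1425 at an adjusted p of 0.1. Leaving out 1 library gave 134 to 1336 lower and 176 to 1371 higher, with both lowest counts without cKO 3. Related list genes (13 lower, 9 higher) numbered 0 and 0 with genotype alone, 2 and 3 with set and sex, 2 and 3 in set A alone, 4 to 14 and 3 to 9 with a library left out, and 6 lower at an adjusted p of 0.01. The 9 higher ones include Sox21, whose call is not read as a result. Genes with a set by genotype interaction numbered 4, against 8 without scaling and 35 with DESeq2. The single-set fits and the ratio of Six6 to Six3 were added after the data were seen. The cause of these differences was not tested.

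Pax6, uncalled throughout, changed sign to 0.0943 with set and sex, 0.00155 with the replicate block, 0.0103 without scaling and 0.0936 in set B alone. With a library left out it ran from -0.114 (without cKO 3) to 0.0913 (without control 2). The log2 ratio to Pcna over all libraries was 0.20 for Rax and -0.0853 within sets. It was 0.06 for Six3, and -0.48 without control 2 and -0.50 without cKO 3. Over single libraries left out it ran from -0.50 to 0.37 for Six3, -0.54 to -0.03 for Nr2e1, -0.29 to -0.03 for Six6, 0.007 to 0.54 for Pax6, 0.02 to 0.56 for Rax, 0.18 to 0.40 for Sox2 and 0.10 to 0.47 for Hmga2. The ratio of Six6 to Six3, -0.18 over all libraries, ran from -0.47 to 0.28 (0.28 without control 2, 0.21 without cKO 3). With the longest transcript as length, RPKM was 28.6 in cKO and 40.8 in control for Rax, 234 and 284 for Pax6, and 4.24 and 5.19 for Hmga2.

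With the label number as a replicate block, the same 4 factors were called, with 1033 genes lower and 1007 higher. Only numbers 2 and 3 occur in both groups. Deviations from the group means correlated at 0.77 and 0.67 for the same-numbered pairs, but as highly (0.71 and 0.67) for differently numbered libraries of the same set, so the numbers do not establish pairs. Each group has 3 animals, and only 1 control is female.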
